A study of Mus musculus with 2 samples.

Results

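The genes described here are 10 members of the AP-1 and immediate early group: Fos, Fosb, Fosl2, Jun, Junb, Jund, Egr1, Atf3, Ier2 and Dusp1. They were chosen by name, and each was found by its gene ID, matched without version to a symbol, among 42462 gene rows that matched the GENCODE M21 annotation, of which 21461 were nuclear protein-coding genes. The RNA came from megakaryocyte-erythroid progenitors (MEP) of adult male mice of strain C57BL/6J, aged 5 to 6 weeks and of unknown health state, with no treatment named in the labels. The study has 1 group of 2 total RNA libraries, made from 100 ng of RNA after depletion of ribosomal RNA and numbered as biological replicates 1 and 2. The recorded size range was 200 to 1000 in replicate 1 and 215 to 1000 in replicate 2. MEP are bone marrow cells named for their potential to form erythroid and megakaryocytic cells. The libraries come from separate biosamples but carry the same donor entry. Whether the spread between them is technical or biological cannot be told from these labels, and no comparison between conditions can be made. The libraries held 39919884 expected counts in replicate 1 and 48043010 in replicate 2.

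AP-1 is a family of dimeric transcription factors built from leucine zipper proteins. JUN proteins can pair with themselves or with FOS proteins, whereas FOS proteins need a partner such as JUN, and the dimers bind the sequence TGACTCA, called the TRE. Genes of the CREB and ATF family, among them Atf3, encode related proteins that bind the CRE, TGACGTCA. Immediate early genes are transcribed within minutes of a stimulus, without new protein synthesis, and their mRNAs are short-lived. In blood formation, AP-1 and EGR1 are best known from stem cell quiescence and from myeloid and monocytic differentiation, and mice without JunB in blood cells develop a myeloproliferative disease.

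Promoter windows are shown for the 2 genes with the highest level (Fos and Jun), for 2 further members with a CRE or its core, TGACG (Junb and Dusp1), and for the member with the lowest level (Fosl2). The RefSeq promoter table of build GRCm38.p6, the assembly of mm10, matched 8 of the 10 genes, all except Egr1 and Ier2. Each window runs 5′ to 3′ on the strand of the gene and holds 250 bases before and 50 after the RefSeq start. Capitals mark matches on either strand to the CRE TGACGTCA, its core TGACG, the TRE TGACTCA, the TATA box TATAAA, or the variants TGACATCA and TTACCTCA. These variants are the TRE-like sites known from the Jun promoter and were added after the sequence was seen.
Fos, chr12:85473640-85473939, plus strand: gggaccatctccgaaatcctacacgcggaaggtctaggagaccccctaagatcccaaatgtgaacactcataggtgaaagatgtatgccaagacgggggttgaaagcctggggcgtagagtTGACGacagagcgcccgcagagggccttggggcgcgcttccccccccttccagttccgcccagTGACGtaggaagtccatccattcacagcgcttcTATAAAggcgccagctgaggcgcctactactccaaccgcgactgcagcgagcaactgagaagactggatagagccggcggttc
Jun, chr4:95052173-95052472, minus strand: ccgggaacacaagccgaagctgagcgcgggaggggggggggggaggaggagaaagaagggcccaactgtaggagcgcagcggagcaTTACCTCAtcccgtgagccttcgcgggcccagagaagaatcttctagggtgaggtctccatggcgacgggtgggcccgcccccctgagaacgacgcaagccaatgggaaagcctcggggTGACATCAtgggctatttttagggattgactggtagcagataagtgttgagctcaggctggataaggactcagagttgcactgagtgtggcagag
Junb, chr8:84978699-84978998, minus strand: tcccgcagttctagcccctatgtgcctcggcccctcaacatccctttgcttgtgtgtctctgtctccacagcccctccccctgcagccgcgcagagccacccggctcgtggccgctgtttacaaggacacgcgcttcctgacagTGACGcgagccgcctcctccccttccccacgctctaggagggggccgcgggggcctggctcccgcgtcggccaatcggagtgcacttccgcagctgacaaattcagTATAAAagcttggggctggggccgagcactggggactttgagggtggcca
Dusp1, chr17:26508423-26508722, minus strand: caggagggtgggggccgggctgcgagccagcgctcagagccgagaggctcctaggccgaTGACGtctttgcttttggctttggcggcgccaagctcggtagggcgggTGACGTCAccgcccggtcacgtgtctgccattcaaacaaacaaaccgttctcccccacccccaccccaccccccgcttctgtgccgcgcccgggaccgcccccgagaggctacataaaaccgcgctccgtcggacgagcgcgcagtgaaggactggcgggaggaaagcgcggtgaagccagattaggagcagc
Fosl2, chr5:32136222-32136521, plus strand: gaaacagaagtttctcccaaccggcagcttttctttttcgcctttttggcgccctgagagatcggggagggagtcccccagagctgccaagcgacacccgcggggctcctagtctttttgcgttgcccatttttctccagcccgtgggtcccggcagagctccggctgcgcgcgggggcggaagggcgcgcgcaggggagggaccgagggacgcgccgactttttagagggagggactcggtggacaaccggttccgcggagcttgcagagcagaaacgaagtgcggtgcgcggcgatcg

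The CRE core TGACG lay in the windows of 5 of the 8 genes, Fos, Junb, Dusp1, Fosb and Atf3, and in 20.8% of all 32851 windows in the table. G and C made up 58.7% to 68.3% of these 5 windows, and 60.0%, 64.7% and 46.7% of those of Jun, Fosl2 and Jund. The median over all windows was 52.7%, and the part of base content in these counts was not tested. The full CRE, which contains the core on both strands, was found in the Dusp1 window, from 143 to 136 bases before the start, and in 1.79% of all windows. The Fos window held the core at 129 and at 66 bases before the start and TATAAA at 33 bases before it. In the Junb window TATAAA begins at the RefSeq start itself, not upstream of it. The Jun window held TGACATCA at 45 and TTACCTCA at 164 bases before the start, letters found in 3.62% and 0.889% of all windows. None of the 8 windows held TGACTCA or the CArG box bound by serum response factor, which 5.20% and 1.63% of all windows held. Sequence further than 250 bases before the RefSeq start was not searched, so these genes may hold such sites elsewhere. The Jund window is placed on a RefSeq start 1210 bases before the M21 start. The Fosl2 window begins at base 32136222, downstream of the M21 start of its transcript at 32135801, so under that model it does not cover the start. These matches are letters in a window of 300 bases, and binding was not measured.

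All 10 genes were detected, and the highest, Fos, exceeded the lowest, Fosl2, 126-fold (geometric mean of both libraries). TPM counts the transcripts of a gene against all transcripts of its library, corrected for length and scaled to the same total in each. A level of at least 1 TPM in both libraries was reached by 9 of the 10, against 39.4% of nuclear protein-coding genes. A level of at least 10 TPM in both was reached by 6 of the 10, against 14.7%. The median of the 10 mean TPM was 12.6, and that of all nuclear protein-coding genes was 0.20. Since the genes were picked with earlier results known, these counts describe the group and do not test it. Nuclear protein-coding genes held 25.5% of all TPM in replicate 1 and 20.6% in replicate 2, so every TPM here is scaled by that share.

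**Figure D1:**
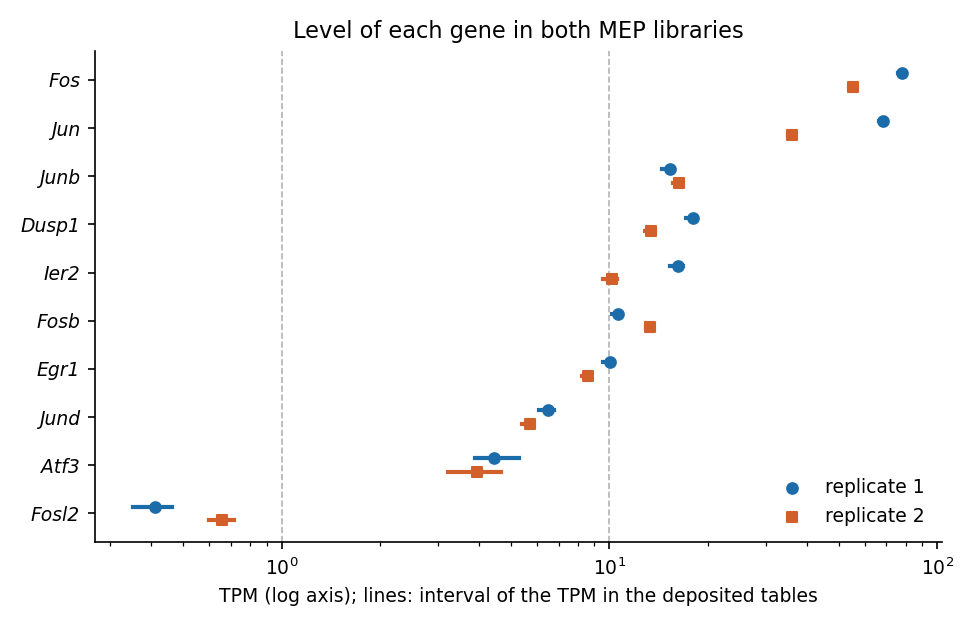
Level of each of the 10 genes in both MEP libraries, as TPM on a log axis. Points are the TPM of each library, lines the interval of the TPM in the deposited tables (its level is not stated), and dashed lines a TPM of 1 and 10. Fos and Jun lie above all others in both libraries, and Fosl2 is the one gene below a TPM of 1.

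Fos, the founding member of the FOS family (ENSMUSG00000021250.9, chromosome 12, 85473890 to 85477273), reached 78.2 TPM in replicate 1 and 55.3 TPM in replicate 2, from 12905 and 13104 expected counts. Its mean of 66.8 ± 16.2 (SD, n = 2) ranked 513th among nuclear protein-coding genes. Jun (ENSMUSG00000052684.4, chromosome 4, 95049034 to 95052222) reached 68.3 TPM and 36.0 TPM in the same order, from 18488 and 14327 counts. Its mean of 52.1 ± 22.8 (SD, n = 2) ranked 688th. Both genes were higher in replicate 1 and exceeded each of the other 8 members in both libraries. For scale, the mean TPM was 33.6 ± 3.22 for Gata1 and 46.0 ± 4.24 for Klf1, both erythroid transcription factors, and 129 ± 30.0 for Myb, a factor of proliferating progenitors (SD, n = 2). Among housekeeping genes it was 93.4 ± 17.6 for Hprt, 160 ± 20.9 for Gapdh and 380 ± 20.3 for Actb.

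The other FOS family genes were lower than Fos. Fosb (ENSMUSG00000003545.2, chromosome 7, 19302696 to 19310051) stood at 10.7 TPM in replicate 1 and at 13.3 TPM in replicate 2, the higher of the libraries for this gene. The deposited tables hold 1 transcript row for Fosb, so its truncated splice form, delta FosB, could not be told from the full one. Fosl2, which encodes FRA2 (ENSMUSG00000029135.9, chromosome 5, 32135801 to 32157842), stood at 0.41 TPM in replicate 1 and 0.66 TPM in replicate 2, from 211 and 503 counts. The fourth gene of the family, Fosl1, stood at 0.09 and 0.46 TPM, from 12 and 91 counts. Fos therefore held 87.5% of the summed TPM of the family in replicate 1 and 79.3% in replicate 2, and Fosb 11.9% and 19.1%.

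Among the JUN genes, Junb (ENSMUSG00000052837.5, chromosome 8, 84974484 to 84978718) stood at 15.3 TPM in replicate 1 and at 16.3 TPM in replicate 2. It was one of 2 members, with Atf3, whose TPM intervals in the libraries overlapped. Those of the other 8 lay apart, as did those of 41.6% of all nuclear protein-coding genes, a base that includes genes without counts. Among nuclear protein-coding genes that averaged 5 TPM or more, the intervals lay apart for 80.3%. Jund (ENSMUSG00000071076.5, chromosome 8, 70698949 to 70700616), known as the more constitutive JUN gene, stood at 6.52 TPM in replicate 1 and 5.71 TPM in replicate 2. The Jund value depends on the gene model: the deposited tables give its transcript 2878 bases, whereas GENCODE M21 gives 1668 and starts it 1210 bases later. With the M21 length and the same counts, the TPM of Jund would be 11.98 and 10.5, which is 1.84 times the deposited value in both libraries and above Egr1 in both. The tables do not show where in the gene the reads lie, so this applies only if they fall within the shorter model. Jun held 75.8% of the JUN family TPM in replicate 1 and 62.0% in replicate 2, or 71.2% and 57.0% with M21 lengths. The FOS and JUN families had summed TPM of 89.4 and 90.1 in replicate 1, and of 69.7 and 57.96 in replicate 2.

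The members outside these families lay between Jun and Fosl2. Egr1, a zinc finger factor (ENSMUSG00000038418.7, chromosome 18), reached 10.1 TPM in replicate 1 and 8.61 TPM in replicate 2. Atf3, a stress-induced factor of the CREB and ATF family (ENSMUSG00000026628.9, chromosome 1, 191170296 to 191218039), had 4.46 and 3.94. Ier2, a nuclear protein induced by growth factors (ENSMUSG00000053560.4, chromosome 8, 84661331 to 84662852), had 16.2 and 10.2 and lies 312 kb from Junb. Dusp1, a phosphatase that inactivates MAP kinases (ENSMUSG00000024190.6, chromosome 17, 26505590 to 26562128), had 18.0 and 13.4. In TPM all 4 were higher in replicate 1, although the Atf3 intervals of 3.89 to 5.28 and 3.21 to 4.68 overlapped; for Egr1, Atf3 and Dusp1 the direction changes with the scaling.

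By mean TPM the order was Fos, Jun, Junb, Dusp1, Ier2, Fosb, Egr1, Jund, Atf3 and Fosl2. Neighbours were taken as separate where their intervals lay apart in both libraries, the order was the same in both, and the means differed by at least the sum of the SDs. By this rule 4 of the 9 neighbouring pairs were separate: Jun from Junb, Egr1 from Jund, Jund from Atf3, and Atf3 from Fosl2. Fos and Jun were not separate, with a difference of 14.6 TPM between the means against summed SDs of 39.1, although Fos was the higher in both libraries. Junb, Dusp1, Ier2 and Fosb changed places between the libraries: Dusp1 led them in replicate 1 and Junb in replicate 2. The separation of Egr1 from Jund and of Jund from Atf3 uses the deposited Jund length.

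Ratios within a library do not depend on the scaling of that library. In all 11 gene pairs examined, the ratio had the same direction in both libraries, and the TPM intervals of the pair lay apart in both. Most of these pairs include Fos, the highest member in both libraries. Pairs that changed direction, such as Junb with Dusp1 and Ier2 with Fosb, were not among the 11, so this count does not describe all pairs of members. No test was run: with 2 libraries the smallest p of an exact sign test, two-sided, is 0.5. The log2 TPM ratio of Fos to Fosb averaged 2.46 ± 0.58 (SD, n = 2), which was 7.35-fold in replicate 1 and 4.14-fold in replicate 2. Fos exceeded Fosl2 by 6.98 ± 0.84 on this scale and Junb by 2.06 ± 0.42. Jun exceeded Jund by 3.02 ± 0.52, or by 2.14 ± 0.52 with M21 lengths. Junb over Jun was -1.65 ± 0.72, and Junb over Jund 1.37 ± 0.20, or 0.52 ± 0.20 with M21 lengths.

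Fos over Jun was the smallest of the 11 ratios in size, at 0.20 in replicate 1 and 0.62 in replicate 2 on the log2 scale. It is a ratio per length. In expected counts Jun, which has the longer transcript, exceeded Fos, and the mean log2 ratio of Fos to Jun was -0.32. For the members outside the FOS and JUN families, the log2 ratio to Fos was -2.08 ± 0.055 for Dusp1, -2.36 ± 0.12 for Ier2, -2.82 ± 0.20 for Egr1 and -3.97 ± 0.23 for Atf3.

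**Figure D2:**
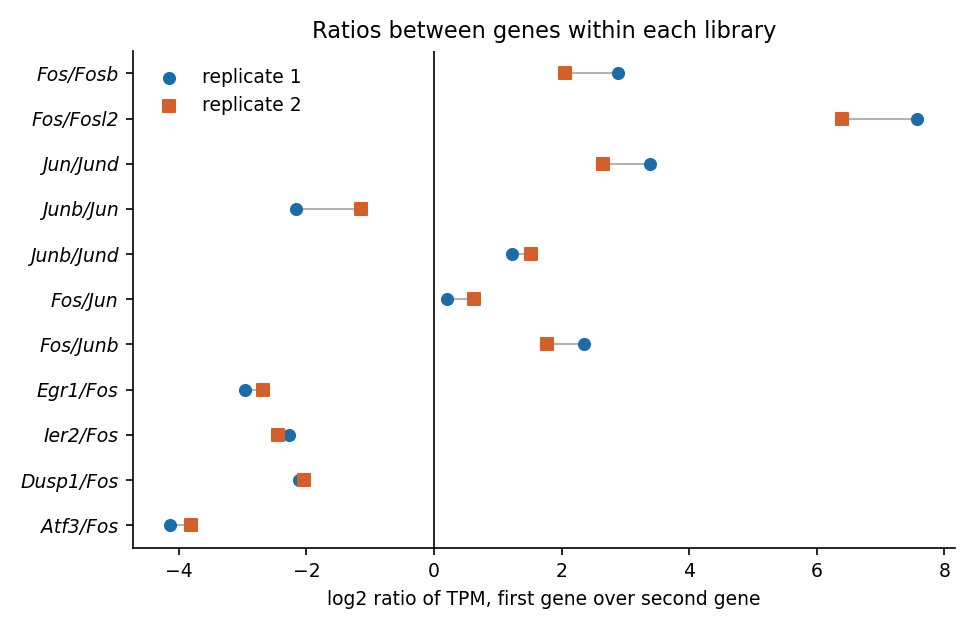
log2 ratio of TPM between 2 genes within each library, first gene over second gene, for 11 pairs. Circles are replicate 1, squares replicate 2, and the grey line joins them. Each pair lies on 1 side of 0 in both libraries, and Fos over Jun lies nearest to 0.

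At the transcript level, 6 of the 10 genes have 1 transcript row in the deposited tables, and 4 of these, Jun, Junb, Jund and Ier2, consist of 1 exon. Of the 4 genes with several rows, Fos, Egr1 and Dusp1 were each led by 1 transcript throughout, whereas the leading transcript of Atf3 changed between the libraries. The protein-coding Fos-201 took 94.1% of the TPM of Fos in replicate 1 and 90.95% in replicate 2, and the processed transcript Fos-203 took the remaining 5.94% and 9.05%. Egr1-202, the shorter protein-coding transcript of Egr1, took 91.7% and 94.7%.

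Dusp1 and Atf3 differed between the libraries in composition. The protein-coding Dusp1-202 took 83.4% of the TPM of Dusp1 in replicate 1 and 64.7% in replicate 2, and both retained-intron transcripts together took 16.6% and 35.3%. One of them, Dusp1-203, had 112.5 expected counts in replicate 1 and 1236 in replicate 2. The other, Dusp1-204, went the opposite way, with 135.4 and 27.6 counts, or 13.35% and 2.49% of the TPM of Dusp1. The protein-coding transcript alone had 15.0 TPM in replicate 1 and 8.70 TPM in replicate 2. For Atf3, the leading transcript was Atf3-203, which starts further upstream, in replicate 1 at 57.1%, and Atf3-201 in replicate 2 at 68.8%. Atf3-203 had 0 expected counts in replicate 2, but the posterior mean TPM in the authors' tables gave it 2.28% there and 50.2% in replicate 1. These shares are estimates from short reads, and at 643 and 689 counts for the whole gene those of Atf3 rest on few reads.

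**Figure D3:**
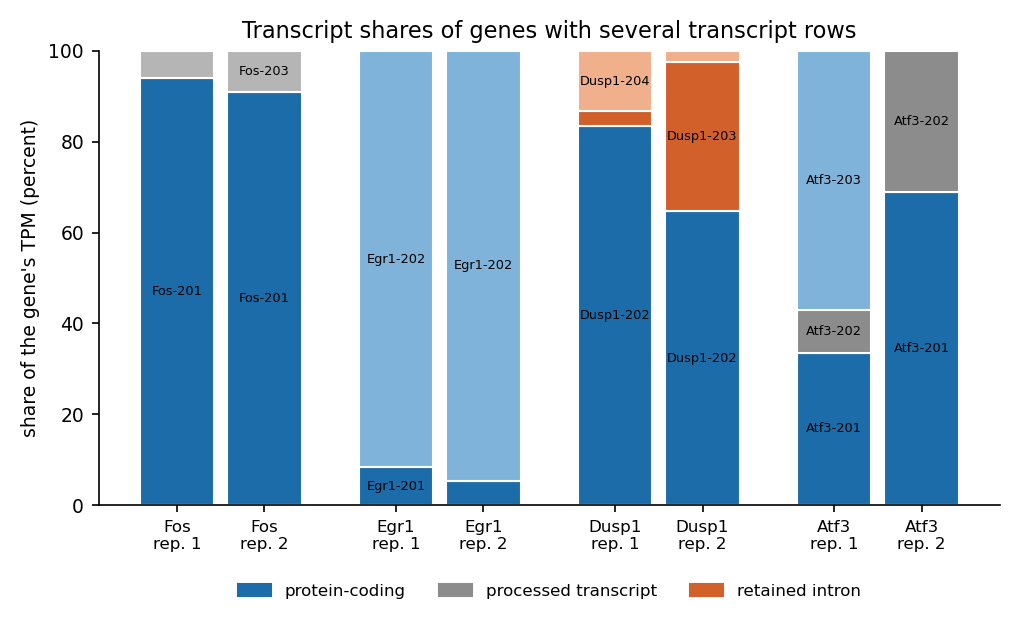
Share of each gene's TPM by transcript, in percent, for the 4 genes with several transcript rows, with replicate 1 and replicate 2 side by side. Blue marks protein-coding transcripts, grey processed transcripts and orange transcripts with a retained intron. Dusp1-203 takes 3.27% in replicate 1 and 32.8% in replicate 2, and Dusp1-204 takes 13.35% and 2.49%.

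Some annotated genes overlap the members on the opposite strand, and the use of strand in counting is not stated in the labels or files. Junos, antisense to Jun, had 0 counts in replicate 1 and 48 in replicate 2, and Gm11175, antisense to Jund, had 9 and 47. Both are small beside the counts of Jun and Jund. Prdx2, which overlaps the M21 span of Junb but not that of its transcript Junb-201, had 21843 and 30276. Ergic1 likewise overlaps the M21 span of Dusp1 but none of its 3 transcripts in the deposited tables, and had 1849 and 2164. At the gene level the authors' tables gave a posterior SD of the count of 0 for all 10 genes.

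The libraries were compared for the 8 members that averaged 5 TPM or more, all except Atf3 and Fosl2. Of these 8, 0 were past 2-fold on the log2(TPM + 1) scale, against 5.72% of 5634 nuclear protein-coding genes. They were also 0 of 8 with TPM rescaled to the protein-coding total and with TMM-scaled counts, against 5.27% and 3.23%. Each replicate is 1 library, so no p-value is given. As log2 of replicate 2 over replicate 1, the median was -0.30 for the 8 members and -0.29 for all genes, and 4 members lay above and 4 below that median. Jun stood at -0.91, Ier2 at -0.63 and Fos at -0.49. Fosb stood at 0.30 and Junb at 0.09. Relative to the median of all genes, Jun stood at -0.62, Fosb at 0.59 and Junb at 0.38.

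With scalings that bring the median of all genes near 0, the same ends of the range appeared. Jun was at -0.59 and Fosb at 0.66 with TMM-scaled counts, and at -0.61 and 0.63 with the rescaled TPM, which leaves out globins. The signs of 4 members changed with the scale. Jund and Egr1 were at -0.16 and -0.20 in TPM, at 0.12 and 0.09 in rescaled TPM, and at 0.15 and 0.09 in TMM-scaled counts. Dusp1 was at -0.40 in TPM, -0.11 in rescaled TPM and 0.10 in TMM-scaled counts. Atf3 was at -0.14 in TPM, 0.13 in rescaled TPM and -0.12 in TMM-scaled counts. Fosl2, below the level set for the comparison, reached 1.03 in TMM-scaled counts. The TPM intervals of the libraries lay apart for 7 of the 8 members, against 80.3% of all genes at that level, so disjoint intervals were usual in this pair of libraries.

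**Figure D4:**
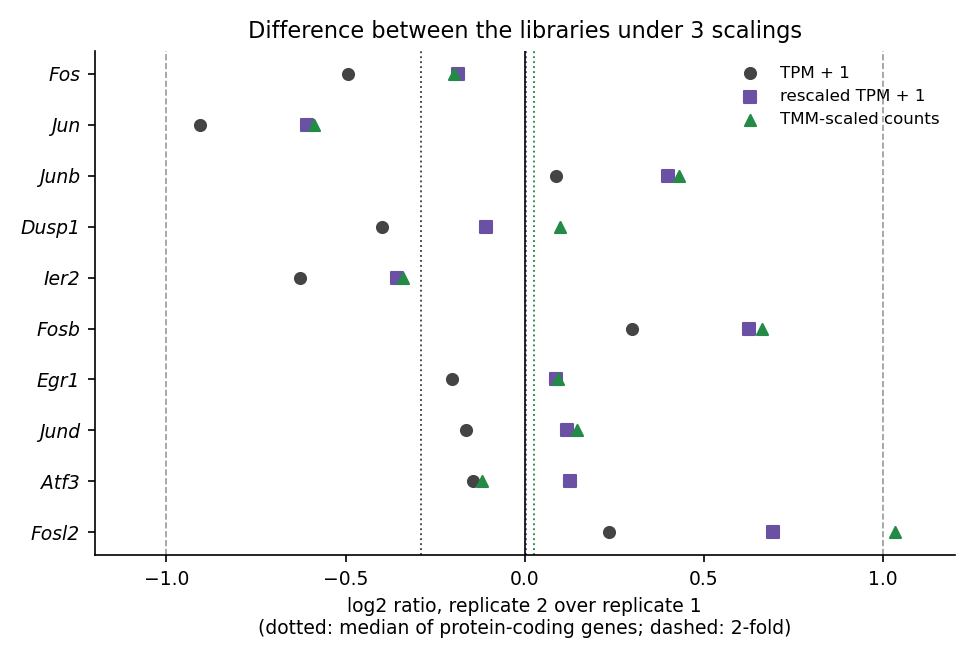
log2 ratio of replicate 2 over replicate 1 for each gene under 3 scalings. Dotted lines are the median over protein-coding genes that averaged 5 TPM or more, on each scale, and dashed lines mark 2-fold. Jun lies lowest and Fosb or Fosl2 highest on each scale, and Fosl2 alone passes 2-fold, on the TMM scale.

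Of 7 other AP-1 factors, 3 were at 1 TPM or more in replicate 1 and in replicate 2, against 39.4% of nuclear protein-coding genes. Their median was 0.395, and that of all nuclear protein-coding genes was 0.20. Atf2, a CRE-binding partner of JUN, stood at 12.02 TPM in replicate 1 and 9.92 TPM in replicate 2, and the related Atf7 had 6.59 and 5.84. Batf, a JUN partner without an activation domain, had 7.62 and 2.23, and was lower in replicate 2 by a log2 ratio of -1.42. The repressor Jdp2 had 0.55 and 0.24. Batf2 and Batf3 had 12 and 5 counts in replicate 1 and 0 in replicate 2, where 3 counts would equal a TPM of 0.0271 and 0.0434, and where the deposited intervals reach 0.112 and 0.184.

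Of 32 other immediate early genes, 18 reached a TPM of 1 and 7 a TPM of 10 in both libraries, with a median of 1.94. Of all nuclear protein-coding genes, 39.4% and 14.7% did, with a median of 0.20. The highest were Zfp36l2, an mRNA decay factor, at 29.7 ± 12.2, Mcl1, a survival protein of the BCL2 family, at 28.6 ± 8.41, Klf6, a Kruppel-like factor, at 22.05 ± 10.9, and Nfkbia, an inhibitor of NF-kB, at 18.25 ± 0.95 (SD, n = 2). Fos and Jun both had higher means than any of the 32. Arc and Ctgf had 0 counts in both libraries.

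Counts of upstream genes stand beside the 39.4% of nuclear protein-coding genes that reached a TPM of 1 in both libraries. Of 9 genes for SRF, the ELK factors, their coactivators and CREB factors, 6 reached a TPM of 1 in both libraries. Atf1 led at 26.6 ± 0.17, followed by Elk4 at 21.6 ± 3.79, Creb1 at 13.7 ± 3.36 and Crem at 3.965 ± 0.91, and Srf was at 3.25 ± 0.39 (SD, n = 2; Srf was named after its value was seen). Of 15 MAP kinases and MAP kinase kinases, 11 reached a TPM of 1. Among them were the JNK gene Mapk9 at 23.3 ± 4.28, the p38 gene Mapk14 at 16.8 ± 7.26 and a further JNK gene, Mapk8, at 11.6 ± 0.78 (SD, n = 2).

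Of 9 other DUSP phosphatase genes, 3 were at 1 TPM or more throughout, Dusp2 at 8.395 ± 1.66, Dusp6 at 4.50 ± 0.84 and Dusp5 at 2.05 ± 0.85, and 6 were not (SD, n = 2). For all nuclear protein-coding genes the share was 39.4%. The median of the 9 genes was 1.235, and that of all nuclear protein-coding genes was 0.20. The count was 5 in replicate 2 alone and 6 with rescaled TPM. Dusp1 had a higher TPM than each of the 9 in both libraries. Heat shock protein genes had a median of 138, and all but Hspb1, with 0 counts in both libraries, reached a TPM of 1 (10 of 11). They were led by Hspa8 at 1573 ± 69.5, Hsp90aa1 at 1007 ± 329, Hsp90ab1 at 713 ± 3.13 and Hspd1 at 241 ± 57.7. The inducible genes Hspa1a and Hspa1b, near-identical copies whose reads may be divided between them, had 8.08 and 22.3 in replicate 1 and 9.33 and 13.5 in replicate 2 (named after their values were seen).

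**Figure D5:**
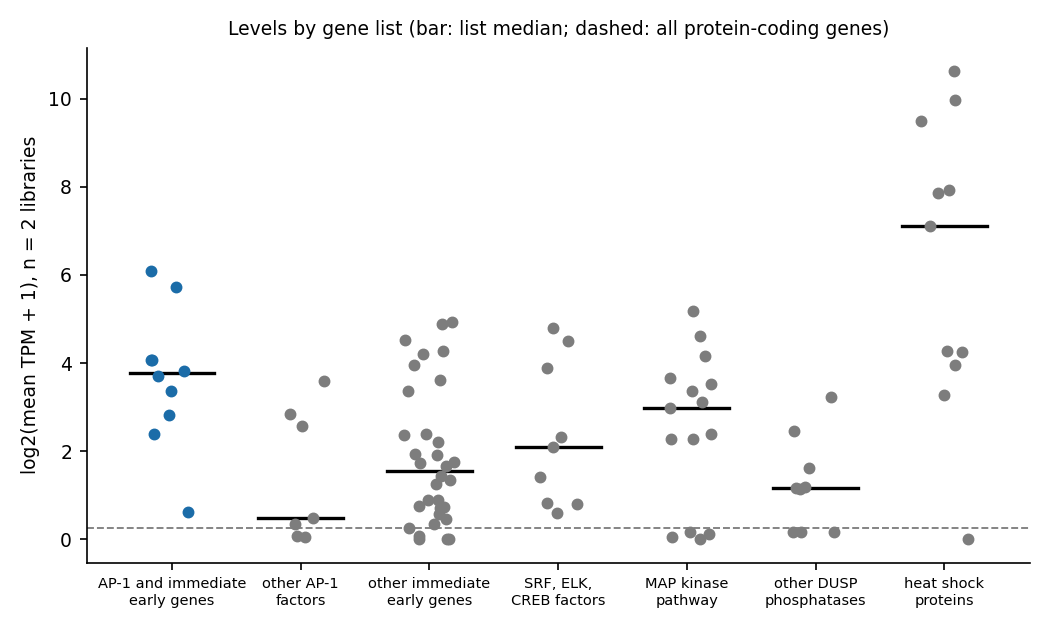
log2(mean TPM + 1) of each gene over both libraries, by gene list. Blue points are the 10 genes described here, grey points the genes of the other lists, black bars the list medians, and the dashed line the median of all nuclear protein-coding genes (0.20 TPM). The 10 genes have a median of 12.6 TPM, and heat shock genes one of 138.

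The label of the cells was checked against marker genes. Of all nuclear protein-coding genes, 39.4% were at 1 TPM or more in both libraries. Every one of 11 erythroid genes was at 1 TPM or more throughout, and their TPM summed to 1430 in replicate 1 and 1448 in replicate 2. Those that averaged over 10 TPM included the carbonic anhydrases Car1 at 715 ± 11.0 and Car2 at 438 ± 15.3, the transferrin receptor Tfrc at 70.8 ± 1.36, Ermap at 60.8 ± 2.92, Klf1, Gata1, and the globins Hba-a1 at 13.3 ± 11.4 and Hbb-bt at 13.4 ± 11.1 (SD, n = 2). Car1 and Car2 make up most of these sums. Nuclear protein-coding genes held 25.5% of all TPM in replicate 1 and 20.6% in replicate 2. Near-equal sums in TPM are therefore not near-equal shares of the protein-coding total. This limit holds for all marker levels, sums and directions given here in TPM. The globins were higher in replicate 2: Hba-a1 had 5.26 TPM in replicate 1 and 21.4 in replicate 2, Hbb-bt 5.57 and 21.2, and Hbb-bs 1.56 and 14.5. Of 10 megakaryocyte genes 4 were at 1 TPM or more throughout, with sums of 66.5 and 25.1, led by Pf4 at 23.5 and 8.71 TPM, Itga2b at 19.6 and 5.70, and Plek at 17.4 and 5.88. Of these 10 genes 7 were lower in replicate 2 and 3 higher, among them Gp9 at 0.43 and 1.65 and Vwf at 1.44 and 2.01, and the median was 0.98 and 1.165. Of 9 stem cell genes 4 were at 1 TPM or more throughout, with sums of 81.0 and 21.2. The highest means were those of Angpt1 at 43.9 and 11.97 TPM and Cd34 at 18.3 and 1.44. Of these 9 genes 7 were lower in replicate 2 and 1 higher. Of 14 granulocyte and monocyte genes 6 were at 1 TPM or more throughout, with sums of 82.5 and 144. They were led by S100a8 at 30.7 and 68.2, S100a9 at 15.9 and 30.7, and Lyz2 at 12.3 and 14.3. Of these 14 genes 9 were higher in replicate 2 and 5 lower, among them Mpo at 8.53 and 1.64 and Ctsg at 4.26 and 0.34, and the median was 2.545 and 1.09. The sums were 11.3 and 23.5 for 11 lymphoid genes, of which Cd3e, Cd4, Cd8a and Ms4a1 had 0 counts in both libraries, and Gzma had 0 counts in replicate 1 and 792 in replicate 2. They were 8.24 and 1.84 for 6 mast cell and basophil genes, without counts for Mcpt8. They were 4.67 and 2.59 for 10 genes of stroma and endothelium, without counts for Col1a1, Col3a1, Cdh5 and Pdgfra. The stem cell marker Ly6a also had 0 counts. Of these markers Hbb-bs, Gp9, Vwf, Cd34, Mpo, Ctsg and Gzma were named after their values were seen. The libraries thus differed in markers of several cell types, in both directions within the megakaryocyte and the granulocyte and monocyte lists. Their part in the levels of the AP-1 and immediate early genes was not tested. In RNA from many cells, fewer cells of a type and less RNA per cell cannot be told apart.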

How the data were processed

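Total RNA of 2 MEP libraries was analysed from gene and transcript tables. Per the file headers, the deposited tables hold expected counts (estimated, not normalized), TPM, FPKM, a posterior mean TPM, bounds of a TPM interval of unstated level (handled as a score) and, for transcripts, the percent of the gene's TPM. The authors used build mm10 and GENCODE M4, per the text files deposited with the tables. No source used here names the program that quantified them, and each replicate has tables of its own. Totals were 39919884 expected counts in replicate 1 and 48043010 in replicate 2. Floors of 3 counts cover counting error only.

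Gene IDs were matched without version to GENCODE M21 (42462 of 43346 rows). Means and SDs (n = 2) are of TPM. Replicates were compared as log2 ratios with a pseudocount of 1 for genes that averaged 5 TPM or more. Alternatives were a pseudocount of 0.1, no filter on low values, posterior mean TPM, FPKM, rescaled TPM, and scaling of rounded expected counts by TMM (edgeR 4.0.16) or DESeq2 1.42.0 size factors, both tested on simulated data. M21 transcript lengths and coding transcripts only were added after seeing the data. Scaling ran in R 4.3.3; tables were handled with pandas 2.3.3 and numpy 2.4.6 in Python 3.11.15, and figures drawn with matplotlib 3.10.9. The members and lists were chosen with earlier results of these data known. Named genes are all members, all other AP-1 factors, 6 scale genes, the 4 highest of each other list (those at a TPM of 1 where fewer than 4 reach it), and, of the marker lists, those without counts and those with a mean TPM over 10. Srf, Hspa1a, Hspa1b and a few markers were added after their values were seen. A few genes that fall under this rule are not reported here. Gene coordinates are those of M21.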

Additional observations from a re-analysis of the deposited data

How the results depend on the processing

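With 2 libraries of 1 group, each mean rests on 2 values. The members' median percentile among nuclear protein-coding genes was 85.9, between 84.8 and 86.3 when either library was left out, and between 85.3 and 85.95 under the other 5 alternatives. The number of members at a TPM of 1, of pairs with 1 direction, of members past 2-fold and of genes with 1 leading transcript stayed within 1.5 times under each alternative. The direction of Fos over Jun reversed to a log2 ratio of -0.32 in expected counts, which are not per length. M21 lengths moved 1 level by more than its SD, that of Jund, and coding transcripts only moved 2, those of Dusp1 and Atf3. FPKM and rescaled TPM moved all 10 levels, since they change the unit. Of the 9 other DUSP genes, 3 were at a TPM of 1 in both libraries, 5 without replicate 1 and 6 with rescaled TPM. No paired analysis was possible because there is 1 group. The depth limits Fosl2, at 211 and 503 counts.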
